A study of Rattus norvegicus with 8 samples.

Results

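The genes described here encode the enzymes that build, desaturate and elongate fatty acids in primary rat nucleus pulposus (NP) cells, which make up the soft centre of the spinal disc. They were chosen by gene symbol as 10 genes of the pathway (Acly, Acss2, Acaca, Fasn, Me1, Scd, Fads1, Fads2, Elovl5 and Elovl6) out of a count table with 32975 rows. The gene names that accompany the table held a row for 9 of the 10, all 9 passed the filter on low counts, and Elovl6 was not analysed here. NP cells of adult Sprague Dawley rats, grown in medium with serum, were transduced with lentiviruses that carried either several ShSirt6 clones mixed together (4 Sirt6-KD libraries, S5 to S8) or a control ShRNA (4 Sirt6-Ctrl libraries, S1 to S4), and both groups were selected with puromycin. SIRT6 is a deacylase of histones and other proteins, and the comparison addresses which genes of this pathway differ in RNA level once its amount is lowered. The series record describes cells from 4 rats, and the labels do not say which Sirt6-KD library shares a rat with which Sirt6-Ctrl library.

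Cells make fatty acids from acetyl-CoA in the cytosol, which ATP citrate lyase (Acly) releases from citrate and acetyl-CoA synthetase (Acss2) forms from acetate. Acetyl-CoA carboxylase (Acaca) turns part of it into malonyl-CoA, and fatty acid synthase (Fasn) joins these units into palmitate with electrons from NADPH, some of which malic enzyme (Me1) supplies. Palmitate and fatty acids from the diet are then lengthened by elongases and given double bonds by desaturases, and many of these genes are known targets of the transcription factor SREBP-1, the product of Srebf1.

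Each library held 31994838 to 40124813 counts, and the smallest count of any of the 9 genes in any library was 116. Levels are given as CPM, read counts relative to library size after TMM scaling. Sirt6 itself had 1755 to 1964 reads in Sirt6-Ctrl and 695 to 753 in Sirt6-KD, so every library stood on the side that its label gives, and its log2 fold change was -1.35 with a standard error of 0.13 (edgeR, adjusted p = 0.000713). Synthetic spike-in RNAs took 6.27% of the counts in S1 and 9.80% in S2, 3.08% in S3 and 2.97% in S4, but 2.15% to 2.47% in Sirt6-KD. The means differed by the two-sided exact permutation test at p = 0.0286, which is the lowest p possible with 4 libraries against 4. For this reason values were also obtained with each library scaled by its spike-ins, and without S1 and S2. Scaling by spike-ins moved the log2 fold change at the median of the 13250 genes tested from -0.02 to 0.94, so that changes under it are also given relative to 0.94. Under that scaling 4 genes were called lower and 20 higher, in place of 1416 and 1063 (83.3% of the calls were higher, in place of 42.9%). Sirt6 itself was then at -0.36, or -1.31 relative to all genes, and not called (edgeR, adjusted p = 0.567).

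Of the 9 genes, 4 fell in Sirt6-KD (Scd, Fasn, Me1 and Acss2), 1 rose (Fads1) and 4 were not called (Acly, Acaca, Fads2 and Elovl5). With the libraries scaled by spike-ins Me1 turned positive, and only Scd was called. Calling needed both an adjusted p below 0.05 in edgeR's quasi-likelihood test and a fold change above 1.5. The 4 genes called lower are 44.4% of the 9, against 10.7% of all genes tested, and the 1 gene called higher is 11.1%, against 8.02%. For 5 of the 9 genes (Scd, Fasn, Me1, Acly and Elovl5) every Sirt6-KD library lay below every Sirt6-Ctrl library, as it did for 15.6% of all genes, and for none did every Sirt6-KD library lie above, against 14.8% in the whole table. Their median log2 fold change was -0.45. Without S1 and S2 there were still 4 genes called lower, and 0 called higher. Of all 14177 genes tested in that fit, 709 were called lower and 810 higher.

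**Figure D1:**
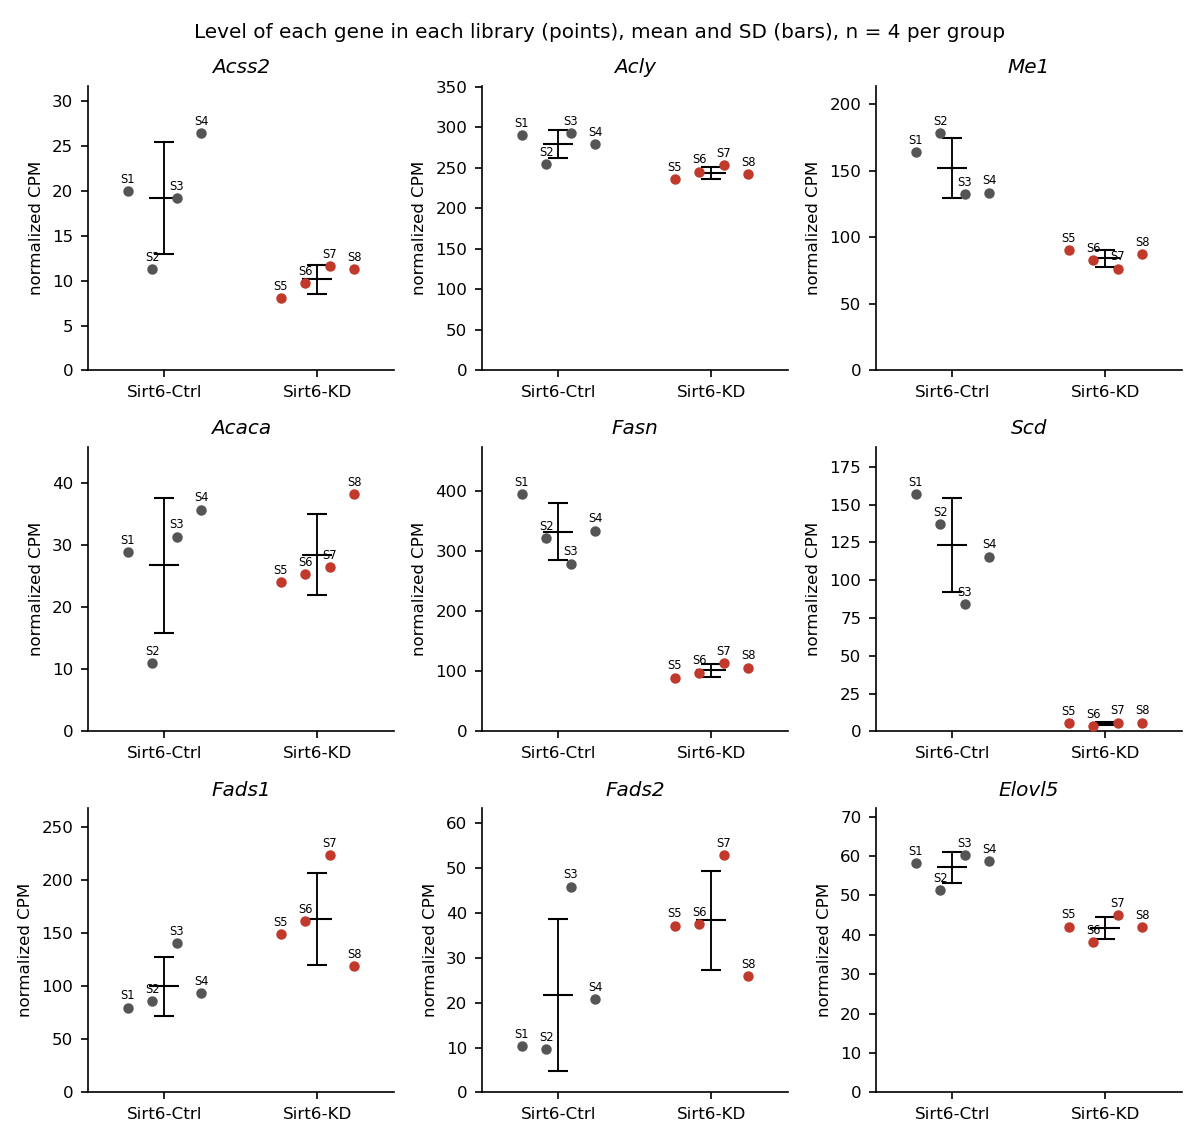
Normalized CPM (vertical axes, starting at 0) of the 9 genes in the 4 Sirt6-Ctrl and 4 Sirt6-KD libraries, with a point for each library and bars for the mean and SD. Scd lies between 84.0 and 157 CPM in S1 to S4 and between 3.47 and 5.89 CPM in S5 to S8, while the groups overlap for Acss2, Acaca, Fads1 and Fads2.

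Scd (ENSRNOG00000013552) encodes stearoyl-CoA desaturase, which puts the first double bond into saturated fatty acids and so makes oleate and palmitoleate. Its level was 157, 137, 84.0 and 116 CPM in S1 to S4, and 5.30, 3.47, 5.71 and 5.89 CPM in S5 to S8. The highest Sirt6-KD library was thus far below the lowest Sirt6-Ctrl library, S3. The fall was 24.2-fold, with a log2 fold change of -4.60 and a standard error of 0.25 (edgeR, adjusted p = 1.74e-05), and only 2 of the 13250 genes tested had a lower log2 fold change. The call was kept in all 16 alternatives, with log2 fold changes from -4.74 to -3.50. With spike-in scaling the value was -3.50, or -4.44 relative to the median of all genes (adjusted p = 0.0152, edgeR).

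Fads1 (ENSRNOG00000020480) and Fads2 (ENSRNOG00000020440) encode the delta-5 and delta-6 desaturases, which act in turn on linoleic and alpha-linolenic acid to make long polyunsaturated fatty acids such as arachidonic acid. Fads1 was at 79.8, 86.1, 141 and 93.5 CPM in S1 to S4 and at 149, 162, 223 and 119 CPM in S5 to S8. S8 lay below S3, so the groups overlapped, and S7 was the highest library. The log2 fold change was 0.71 with a standard error of 0.23 (edgeR, adjusted p = 0.0472). This call was lost when any 1 of S1, S2, S4, S5, S6 or S7 was left out (log2 fold change from 0.52 to 0.75, adjusted p from 0.0845 to 0.145, edgeR). It was also lost without S1 and S2 together (0.49, adjusted p = 0.225) and with spike-in scaling, where the value was 1.56, or 0.61 relative to all genes (adjusted p = 0.0936).

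Fads2 was at 10.3, 9.71, 45.9 and 20.8 CPM in S1 to S4 and at 37.2, 37.5, 52.8 and 25.9 CPM in S5 to S8. S3 lay above 3 of the 4 Sirt6-KD libraries, and S1 and S2, the libraries rich in spike-ins, were the lowest. The coefficient of variation over the Sirt6-Ctrl libraries was 78.1%, the highest of the 9 genes. The log2 fold change of 0.82 had a 95% interval from -0.19 to 1.84 (edgeR, adjusted p = 0.221). Left-out libraries moved it in both directions, to 1.49 without S3 (adjusted p = 0.00869, called higher) and to 0.21 without S1 and S2 (adjusted p = 0.726). The part of the spike-in share in these differences was not tested.

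Fasn (ENSRNOG00000045636), the multi-domain synthase of palmitate, was at 394, 321, 279 and 334 CPM in S1 to S4 and at 89.3, 97.5, 114 and 106 CPM in S5 to S8. All Sirt6-KD libraries lay below all Sirt6-Ctrl libraries, with a wide gap. The fall was 3.27-fold, and the log2 fold change was -1.71 with a standard error of 0.14 (edgeR, adjusted p = 0.000224). Each library left out in turn gave -1.78 to -1.59 and kept the call, whereas with spike-in scaling the value was -0.70, or -1.64 relative to all genes (adjusted p = 0.275).

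Acaca (ENSRNOG00000034013) encodes the carboxylase that commits acetyl-CoA to fatty acid synthesis, the step just before Fasn. Its level was 28.9, 10.98, 31.4 and 35.7 CPM in S1 to S4 and 24.02, 25.3, 26.4 and 38.2 CPM in S5 to S8. S2 was the lowest library of all, S8 was the highest, and the remaining 3 Sirt6-Ctrl libraries lay above S5, S6 and S7. The log2 fold change was 0.09 with a 95% interval from -0.62 to 0.80 (edgeR, adjusted p = 0.87), and its sign turned without S2 (-0.15), without S8 (-0.05) and without S1 and S2 (-0.23). That interval includes a change by 1.5-fold in either direction, so a difference of that size was not detectable for Acaca in these libraries.

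Me1 (ENSRNOG00000009715), whose cytosolic malic enzyme yields NADPH, was at 164, 178, 132 and 133 CPM in S1 to S4 and at 90.4, 82.6, 76.2 and 87.3 CPM in S5 to S8. The groups did not overlap, and the log2 fold change was -0.85 with a standard error of 0.14 (edgeR, adjusted p = 0.00427), a fall of 1.80-fold that became 0.20 with spike-in scaling, or -0.74 relative to all genes. The call was kept with each library left out in turn (-0.91 to -0.75).

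Acss2 and Acly are the sources of acetyl-CoA in the cytosol. Acss2 (ENSRNOG00000018755) was at 19.97, 11.3, 19.2 and 26.4 CPM in S1 to S4 and at 8.02, 9.74, 11.6 and 11.3 CPM in S5 to S8. S2 lay below S7, so the groups overlapped at 1 library, and the other 3 Sirt6-Ctrl libraries were above all of Sirt6-KD. The log2 fold change was -0.92 with a standard error of 0.27 (edgeR, adjusted p = 0.0362). The call was lost when any 1 of S1, S4, S5, S6, S7 or S8 was left out (-0.99 to -0.73, adjusted p from 0.0744 to 0.107, edgeR), without the filter on low counts (adjusted p = 0.0539) and with spike-in scaling (-0.10, or -1.04 relative to all genes). Without S1 and S2 it was -1.16 and called (adjusted p = 0.013).

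Acly (ENSRNOG00000016924) was at 290.4, 255, 292 and 279 CPM in S1 to S4 and at 236, 245, 253 and 242 CPM in S5 to S8. Every Sirt6-KD library lay below every Sirt6-Ctrl library, but S7 and S2 were nearly equal, at 253.3 and 254.8 CPM. The log2 fold change of -0.19 had a 95% interval from -0.44 to 0.05 and was not called (edgeR, adjusted p = 0.229), and it was 0.74 with spike-in scaling, or -0.20 relative to all genes. A fall of Acly by 1.5-fold lay outside that interval.

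Elovl5 (ENSRNOG00000006331) encodes an elongase that lengthens polyunsaturated fatty acids between the steps of Fads2 and Fads1. It was at 58.1, 51.4, 60.2 and 58.8 CPM in S1 to S4 and at 42.1, 38.1, 44.97 and 41.9 CPM in S5 to S8. The groups did not overlap, and the spread within each was small, with coefficients of variation of 6.86% and 6.70%. The log2 fold change was -0.45 with a standard error of 0.13 (edgeR, adjusted p = 0.0297), which passed the threshold on p and missed that on fold change, so that Elovl5 was not called. It was 0.48 with spike-in scaling, or -0.47 relative to all genes.

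**Figure D2:**
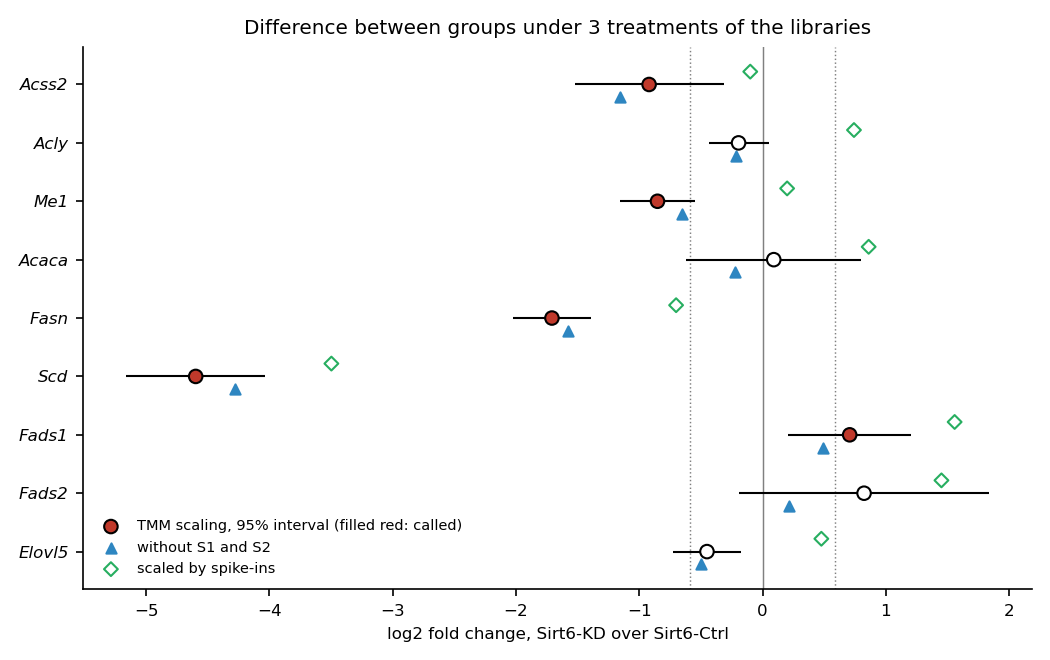
Log2 fold change (horizontal axis, Sirt6-KD relative to Sirt6-Ctrl) for the 9 genes, with circles and 95% intervals for TMM scaling (red where called), triangles for the fit without S1 and S2, and diamonds for scaling by spike-ins; dotted lines mark a fold change of 1.5. Spike-in scaling moves every gene to the right, where Acly, Me1 and Elovl5 become positive and Scd stays at -3.50.

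The Sirt6-Ctrl libraries differed among themselves for several of the genes. S3 had the lowest level in its group of Scd, Fasn and Me1, and also of Srebf1, and it had the highest of Fads1, Fads2, Elovl5 and Acly. S2 had the lowest level in its group for 5 of the 9 genes (Acly, Acss2, Acaca, Fads2 and Elovl5). In Sirt6-KD, S7 was the highest library for 6 of the 9 genes. The share of all genes for which each library was lowest or highest was not determined, so these counts cannot be set against the whole table.

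Ratios of 2 genes within a library do not depend on how libraries are scaled, and 4 ratios were compared between the groups. The log2 ratio of the counts of Scd to those of Fasn was -1.33, -1.23, -1.73 and -1.53 in S1 to S4 and -4.07, -4.81, -4.31 and -4.17 in S5 to S8. The groups were far apart, with a difference of -2.89 (standard error 0.20), or 7.39-fold (exact two-sided permutation test, p = 0.0286, adjusted p = 0.0571 over the 4 ratios). The ratio of Scd to its paralog Scd2 was 8.20-fold lower in Sirt6-KD, a log2 difference of -3.04 (standard error 0.29, exact two-sided permutation test, p = 0.0286, adjusted p = 0.0571). Both p-values are the smallest that 4 libraries against 4 can give, and neither passes 0.05 after adjustment, although every Sirt6-KD library lay below every Sirt6-Ctrl library.

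The ratio of Fads1 to Fads2 showed a different picture. It was 2.96, 3.15, 1.62 and 2.17 (log2) in S1 to S4 and lay within 2.01 to 2.20 in all Sirt6-KD libraries. The difference of -0.37 (standard error 0.36) was not past the spread between libraries (exact two-sided permutation test, p = 0.343, adjusted p = 0.343), and it became 0.21 without S1 and S2. The ratio of Acss2 to Acly was -3.92 ± 0.45 in Sirt6-Ctrl and -4.60 ± 0.21 in Sirt6-KD (mean ± SD, n = 4), a difference of -0.68 (standard error 0.25, exact two-sided permutation test, p = 0.0857, adjusted p = 0.114). Without S2 alone, which had the lowest Acss2 of its group, this difference was -0.87 (exact two-sided permutation test, p = 0.0286). That p was not adjusted and is the smallest that 3 libraries against 4 can give. Each of the other 7 libraries left out gave p from 0.0857 to 0.114 in the same test.

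**Figure D3:**
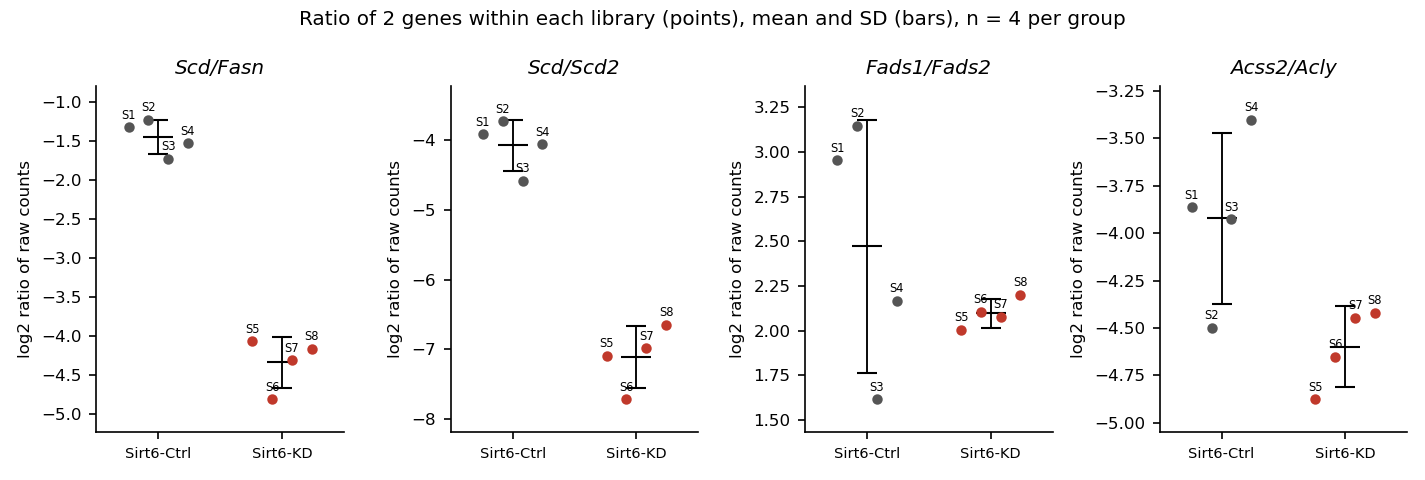
Log2 ratio of the raw counts of 2 genes (vertical axes, not starting at 0) in each library, with bars for the mean and SD of 4 libraries. Scd/Fasn and Scd/Scd2 differ between the groups by -2.89 and -3.04, whereas the Sirt6-KD values of Fads1/Fads2 lie inside the range of Sirt6-Ctrl.

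Scd and Scd2 lie with Scd4 in a row on chromosome 1 of the rat, and Fads3, Fads2 and Fads1 form another cluster on that chromosome, by the RefSeq annotation of GRCr8. Stretches upstream of the start of Scd, Scd2, Acss2 and Fads1 are shown because these genes cover a large fall, a moderate fall in a paralog, a fall and a rise whose calls both depended on single libraries. Each runs 5′ to 3′ on the strand of its gene, from 150 to 46 bases upstream of the RefSeq start, in GRCr8 coordinates at chr1:253231777-253231881 (minus strand) for Scd, chr1:253118227-253118331 (plus) for Scd2, chr3:164464553-164464657 (plus) for Acss2 and chr1:216252542-216252646 (plus) for Fads1. Capitals mark CCAAT, the box bound by the factor NF-Y, or its reverse complement ATTGG.
Scd: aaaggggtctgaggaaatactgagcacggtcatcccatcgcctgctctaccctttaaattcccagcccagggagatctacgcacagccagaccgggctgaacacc
Scd2: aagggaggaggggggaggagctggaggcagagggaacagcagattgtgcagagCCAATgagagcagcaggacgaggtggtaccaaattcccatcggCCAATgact
Acss2: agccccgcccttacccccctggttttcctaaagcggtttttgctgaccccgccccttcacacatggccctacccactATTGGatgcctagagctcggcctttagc
Fads1: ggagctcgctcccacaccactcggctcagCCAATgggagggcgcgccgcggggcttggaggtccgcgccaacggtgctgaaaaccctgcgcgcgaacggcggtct

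Windows of 250 bases upstream of the start were at hand for 7 of the 10 genes (Acly, Acss2, Me1, Scd, Fads1, Fads2 and Elovl5) and were searched on both strands. CCAAT was in 4 of the 7 (Acly, Acss2, Fads1 and Elovl5), and in 34.0% of the 33469 windows of all genes. It was in genes called lower, called higher and not called, was not found in the window of Scd, and was in 2 copies before Scd2. The letters TCACNCCA, a core of the sterol response element bound by SREBPs, were in 0 of the 7 windows and in 3.24% of all windows. The E-box CACGTG was in 1 (Elovl5), against 5.59%, and the GC box GGGCGG in 5, against 30.5%, and no 2 of these motifs overlapped in the windows of the 7 genes. A match here is only a run of letters, and a window without one shows only that these letters are not in those 250 bases.

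Other genes that act with these enzymes were taken from a list of 52, of which 42 were tested. In Sirt6-KD 11 were called lower (26.2%, against 10.7% of all genes tested) and 2 higher (4.76%, against 8.02%), with a median log2 fold change of -0.33. Without S1 and S2 these counts were 8 and 0, while over the whole table they went from 1416 lower and 1063 higher to 709 and 810. With spike-in scaling none was called, and 5 of the 11 stayed negative while all 11 were below the median of all genes. Their directions below are those of TMM scaling.

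Among desaturases and their electron carriers all 5 genes tested were called, 4 lower and 1 higher. Of all genes tested 10.7% were called lower and 8.02% higher. Scd2, the paralog of Scd, averaged 2030 ± 232 CPM in Sirt6-Ctrl against 691 ± 66.8 CPM in Sirt6-KD (mean ± SD, n = 4), with a log2 fold change of -1.55 (edgeR, adjusted p = 0.000462), or -0.59 with spike-in scaling. Reads that match both Scd and Scd2 could be split or dropped by the counting, so the exact level of each is uncertain. Cytochrome b5, encoded by Cyb5a in the endoplasmic reticulum and by Cyb5b at the mitochondrion, and its reductase Cyb5r3 hand electrons to enzymes such as desaturases. Their log2 fold changes were -0.60, -0.91 and -0.61 (edgeR, adjusted p = 0.0314, 0.00376 and 0.036), and 0.49, 0.08 and 0.41 with spike-in scaling. Cyb5a and Cyb5r3 lost their calls when S1 and S2 were left out (adjusted p = 0.164 and 0.158). Fads3, the third gene of the Fads cluster, was called higher at 0.59 (adjusted p = 0.015), just past the fold threshold, but not without S1 and S2 (0.53, adjusted p = 0.0519).

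Of the genes that feed carbon and electrons into the pathway, Aacs, Slc25a1 and Idh1 were called lower. Aacs and Slc25a1 were 2 of 8 further genes tested for fatty acid synthesis (25%), against 10.7% of all genes tested. Idh1 was 1 of 3 further NADPH sources tested (33.3%). In both lists 0 were called higher, against 8.02% of all genes tested. Aacs, which makes acetoacetyl-CoA in the cytosol from ketone bodies, had a log2 fold change of -1.91 (edgeR, adjusted p = 0.00277), or -0.82 with spike-in scaling. Slc25a1, the mitochondrial carrier that exports the citrate used by Acly, had one of -0.78 (adjusted p = 0.0138), or 0.31 with spike-in scaling, and was at -0.53 without S1 and S2, short of the fold threshold. Idh1, a cytosolic source of NADPH, was at -1.07 (adjusted p = 0.00326), or -0.08 with spike-in scaling, while Me2, a mitochondrial malic enzyme, was not called.

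Of the 8 further elongation enzymes tested, 0 were called, where 10.7% of all genes tested were called lower and 8.02% higher. Their log2 fold changes ran from -0.55 (Elovl1, edgeR, adjusted p = 0.0168, short of the fold threshold) to 0.50. Acsl3, a ligase that activates fatty acids with CoA, was the 1 gene called of 4 in its family, at -1.05 (adjusted p = 0.00645), or -0.07 with spike-in scaling. Among 14 genes of esterification, Lpin1, Agpat1 and Lpcat3 were called lower (21.4%, against 10.7% of all genes tested). They were at -1.49, -1.03 and -0.91 (adjusted p = 0.0116, 0.00447 and 0.011), and at -0.62, 0.03 and 0.07 with spike-in scaling, where the last pair turned positive. Lpin1 makes diacylglycerol, Agpat1 makes phosphatidic acid, and Lpcat3 places polyunsaturated chains into phospholipids. Agpat2 was called higher at 0.78 (adjusted p = 0.0498), and not without S1 and S2 (0.51, adjusted p = 0.145). It is 7.14% of the 14 genes, near the 8.02% of all genes tested.

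**Figure D4:**
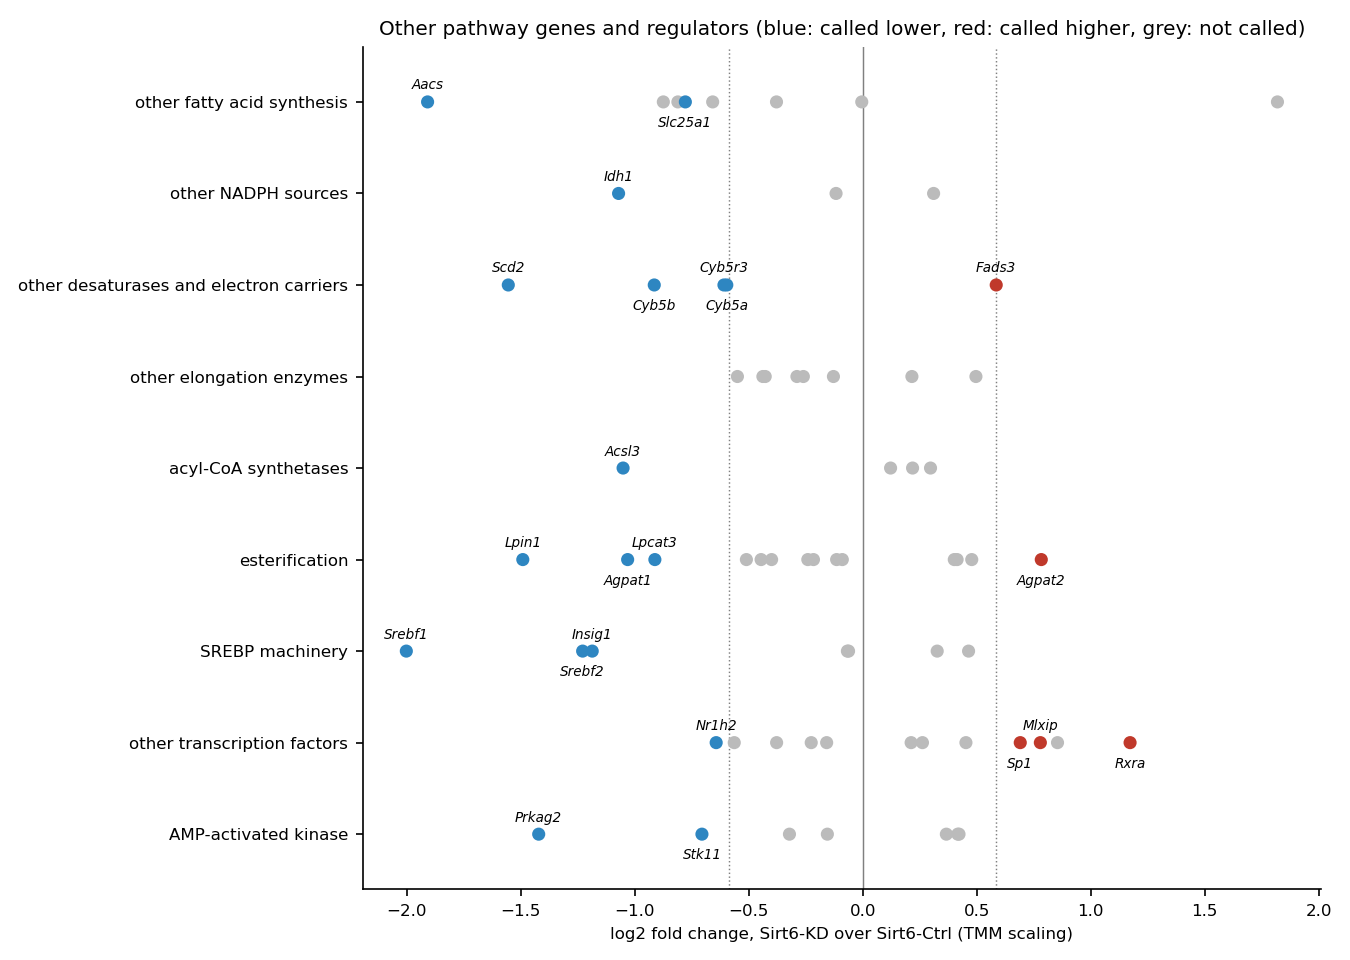
Log2 fold change (horizontal axis, Sirt6-KD relative to Sirt6-Ctrl, TMM scaling) for 42 other genes of the pathway and 26 regulators, a point for each gene, grouped by function, with called genes coloured and named and dotted lines at a fold change of 1.5. Aacs and Srebf1 lie farthest to the left of the called genes, at -1.91 and -2.001; with spike-in scaling these became -0.82 and -0.97, and 8 of the 17 genes called lower became positive.

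Of 26 regulators tested, 6 were called lower (23.1%, against 10.7% of all genes tested) and 3 higher (11.5%, near the 8.02% of all genes), and the median log2 fold change was -0.06. Without S1 and S2 the counts were 4 and 1, against 709 lower and 810 higher of the 14177 genes then tested. With spike-in scaling no regulator was called. Srebf1 was at 345, 221, 194 and 229.6 CPM in S1 to S4 and 64.2, 60.8, 59.2 and 63.2 CPM in S5 to S8, with a log2 fold change of -2.001 (edgeR, adjusted p = 0.000366), or -0.97 with spike-in scaling. Srebf2, for SREBP-2, and Insig1, which retains SREBPs in the endoplasmic reticulum and is itself a target of them, had log2 fold changes of -1.23 and -1.19 (adjusted p = 0.00143 and 0.00217), and -0.20 and -0.17 with spike-in scaling. Scap, Insig2, Mbtps1 and Mbtps2, the remaining genes of the SREBP machinery, were not called, with log2 fold changes from -0.07 to 0.46.

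Nr1h2, which encodes the oxysterol receptor LXR-beta, was called lower at -0.64 (edgeR, adjusted p = 0.0115), or 0.40 with spike-in scaling. Its partner Rxra was called higher at 1.17 (adjusted p = 0.0106), as were Sp1 at 0.69 (0.0292 adjusted p) and Mlxip, a sugar-sensing factor, at 0.78 (0.0421 adjusted p). Sp1 and Mlxip were not called without S1 and S2 (adjusted p = 0.145 and 0.141). Among genes of the AMP-activated kinase, which inhibits acetyl-CoA carboxylase by phosphorylation, the gamma subunit Prkag2 and the upstream kinase Stk11 were called lower at -1.42 and -0.71 (adjusted p = 0.00788 and 0.00908), and at -0.39 and 0.36 with spike-in scaling. Stk11 and Nr1h2 were short of the fold threshold without S1 and S2 (-0.49 and -0.43). These are 28.6% of the 7 kinase genes tested, against 10.7% of all genes tested, and 0 were called higher. A further gamma subunit, Prkag1, went the other way, at 0.42 (edgeR, adjusted p = 0.0487), short of the fold threshold. It was at 1.33 with spike-in scaling. Prkag1 averaged 112 CPM over S1 to S4 and 150 CPM over S5 to S8, and Prkag2 averaged 21.9 and 8.19 CPM. The catalytic subunits Prkaa1 and Prkaa2 were not called, nor were Prkab1 and Prkab2.

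The labelled cell type was checked against markers. Of the NP markers listed, 8 genes were tested, and their summed level ranged over 169 to 250.01 CPM in the Sirt6-Ctrl libraries and 137 to 151 CPM in the Sirt6-KD libraries. Acan, which is part of this sum, varied widely, at 4.54, 15.49, 8.83 and 55.65 CPM in S1 to S4. It was at 9.80 to 18.7 CPM in S5 to S8 and was not called (edgeR, adjusted p = 0.52). Pax1, a transcription factor of the disc lineage, was at 60.17 to 78.99 CPM in S1 to S4 and 48.32 to 58.23 CPM in S5 to S8, and Krt8 and Car3 were called lower (log2 fold changes of -1.32 and -2.70, edgeR, adjusted p = 0.0441 and 0.0127, and -0.13 and -1.59, not called, with spike-in scaling). These are 25% of the 8, against 10.7% of all genes tested, and 6 were not called. Sox9 was the 1 gene of the 8 with a positive log2 fold change under TMM scaling. It was at 0.48 (edgeR, adjusted p = 0.461), or 1.15 without S1 and S2 (adjusted p = 0.0644). Krt8 was not called without S1 and S2 (adjusted p = 0.205). Krt18, Krt19, Tbxt, Shh and Col2a1 were not analysed here. The gene names, which cover rows whose counts total at least 81, held no row under these symbols. Whether these genes fell below that total or carried another name was not tested. Markers of annulus and tendon cells, summed over 4 genes, were at 13360 to 25366 CPM in S1 to S4 and at 7996 to 17518 CPM in S5 to S8, nearly all of it from Col1a1, and Scx was called lower at -1.20 (adjusted p = 0.049), or -0.32 and not called with spike-in scaling. Without S1 and S2 Scx was not called (-1.37, adjusted p = 0.0841), whereas Mkx and Thbs4 of the same list were called lower (-1.05 and -2.64, adjusted p = 0.0209 and 0.0208). Adipocytes make much fatty acid, and of their 7 markers only Fabp4 was tested, at 0.242 to 3.46 CPM in S1 to S4 and at 1.21 to 3.36 CPM in S5 to S8. Fabp4 was not called (log2 fold change of 0.48, edgeR, adjusted p = 0.713), but was called higher without S1 and S2 (2.64, adjusted p = 0.0397), where S3 and S4 held 15 and 10 reads of it. Both macrophage markers tested summed to 10.9 to 27.6 CPM in S1 to S4 and 10.2 to 19.7 CPM in S5 to S8, the endothelial marker Tek was below the filter at 0 to 0.592 CPM, and erythroid markers were not analysed here. In such bulk RNA, fewer cells of a type and less RNA of a gene per cell cannot be told apart, and the part of these markers in the results was not tested.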

How the data were processed

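RNA-seq of 8 libraries was analysed, 4 Sirt6-Ctrl and 4 Sirt6-KD, grouped by the genotype in the sample labels. The authors deposited raw counts per gene, without normalization, and a table with a normalized signal (counts divided by 1 size factor per library), gene names, and their own fold changes and p-values. That table holds the rows whose counts total at least 81, and only its gene names were used. The submitters' processing notes list Trimmomatic 0.36, STAR 2.5.2b, Subread 1.5.2 with featureCounts, DESeq2 and the build Rnor_6.0, and the handling of reads that match several genes is not given in the sources used here. Rows were filtered with filterByExpr, scaled by TMM and tested with edgeR 4.0.16 (R 4.3.3; glmQLFit and glmQLFTest, two-sided, Benjamini-Hochberg over all 13313 rows, 63 of them spike-ins). Standard errors are the log2 fold change over the square root of F. Scaling by spike-ins used their summed counts as library sizes. The log2 ratios had 0.5 added to each count. A ratio with Elovl6 was not computed. The genes, lists and tests were chosen with earlier results of these data known. The genes named are the 10 chosen, Sirt6, those of the ratios, Srebf1, Srebf2, Insig1 and every called gene of the lists; examples that were not called were chosen after their values were seen. DESeq2 1.42.0 and limma-voom (limma 3.58.1) were alternatives. The fits of all 3 tools were also run on simulated counts without spike-in rows. That simulation does not cover the difference in spike-in share between the groups, and its outcome is not given here. Depth was 31994838 to 40124813 counts, at which 3 counts are 0.0748 to 0.0938 CPM, a limit that covers counting error only. Whether the libraries of a group came from separate cultures is stated only as independent experiments, and p-values measure the spread between these libraries. No pair of libraries agreed within sampling noise.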

Additional observations from a re-analysis of the deposited data

Results flagged for a closer look

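Dixon's test was applied to 74 sets of 4 libraries, and 4 of them held a library far from the other 3 of its group, a number for which chance alone, at 1 set in 20, gives 3.7. In Sirt6-KD, S8 was the highest for Acaca, at 38.2 CPM against 26.4 CPM in the nearest library, a gap of 0.83 of the range. S8 was also the lowest for Scd2, at 591 CPM against 722 CPM, a gap of 0.954 of the range, although it remained below all Sirt6-Ctrl libraries. In Sirt6-Ctrl, S3 was the highest for Sp1, at 134 CPM against 79.4 CPM (0.964 of the range), and for Mlxip, at 16.2 CPM against 9.65 CPM (0.908 of the range).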

How the results depend on the processing

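The widest departures came with scaling by spike-ins, which left 1 of the 9 genes called lower (Scd) and 0 higher, called 0 of the other pathway genes and 0 of the regulators in either direction, turned Acly (0.74), Me1 (0.20) and Elovl5 (0.48) positive, and left Sirt6 itself at -0.36, not called. Without S1 and S2 the sign of Acaca (-0.23) and of the Fads1/Fads2 ratio (0.21) turned. In that fit 0 of the 9 genes, 0 other pathway genes and 1 regulator were called higher, against 810 of the 14177 genes tested. Scd/Fasn (-2.71) and Scd/Scd2 (-2.79) could not pass the test there, since 2 libraries against 4 give no p below 0.0667. Limma-voom and omission of the filter on low counts each left 1 other pathway gene called higher, and without the filter the genes called lower were 3 of the 9.

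When single libraries were left out, the 9 genes gave 3 to 4 called lower and 0 to 2 called higher (2 without S3, 0 without S1), other pathway genes 8 to 15 lower and 0 to 2 higher, and regulators 5 to 7 lower and 1 to 4 higher (4 without S3). The calls over the whole table moved as well. They ran from 700 lower and 445 higher of 13585 genes without S6 to 1913 lower and 1699 higher of 13562 genes without S3. Acaca ranged from -0.15 to 0.26, Acss2/Acly from -0.87 to -0.50, and the difference in spike-in share from -4.09 to -1.82 percentage points, with exact permutation p up to 0.171. Of the genes called among the 9, Scd kept its call in 16 of 16 alternatives, Fasn and Me1 in 15, and Acss2 and Fads1 in 8 each. Over the whole table the share of calls that were higher was 42.9%, and it was 54.9% with limma-voom and 53.3% without S1 and S2. The cause of these differences was not tested. No paired analysis was possible because no label ties a Sirt6-KD library to a Sirt6-Ctrl library. At 4 libraries a group, genes as variable as Fads2 and Acaca have intervals wider than the threshold on fold change.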
